A study of Mus musculus with 18 samples.

Results

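The livers of mice made diabetic with a high-fat diet and streptozotocin were compared with those of control mice, across every gene with a mean of at least 1 RPKM (reads per kilobase of gene, scaled to the mapped reads of the library). The mean was taken over the 12 fitted libraries, and this rule kept 10159 of the 19057 genes in the table. The comparison itself used 6 of the 18 libraries, 3 of the HS group and 3 of the Con group. Both groups were male ICR mice, an outbred strain, and livers were collected at 10 weeks of age. Con mice ate regular chow and received saline. HS mice were fed high-fat chow starting at 3 weeks and got 1 intraperitoneal injection of streptozotocin (STZ) at 85 mg/kg when they were 5 weeks old. The study kept 30 mice per treatment, and whether each library came from 1 mouse is not given in the sources used here, so that the p-values measure the spread between these libraries. The A10-FMT and Con-FMT groups were mice on the same diet and STZ that were given gut microbiota from donor mice of a separate experiment. These donors had been dosed with alginate oligosaccharide (AOS) or with water. Both recipient groups entered the model only to estimate the variance. The A10 and HSA10 groups, which received 10 mg/kg AOS without and with diet and STZ, gave a second comparison without any shared library.

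STZ is taken up by the insulin-producing beta cells of the pancreas and kills them, and a high-fat diet lowers the response of the liver to insulin. In the fed state insulin acts on hepatocytes to switch on glycogen storage and fatty acid synthesis through SREBP-1c and ChREBP, and to switch off gluconeogenesis. When insulin action is low, fatty acids reach the liver from fat tissue, activate the nuclear receptor PPAR alpha and are oxidized or turned into ketone bodies, while amino acids are broken down as a source of new glucose.

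The libraries were first compared with each other. Hepatocyte genes dominated all 6 of them, with albumin (Alb) at 24367, 37253 and 29412 RPKM in Con and 25877, 22470.1 and 29070.0 RPKM in HS, and the summed level of the 12 hepatocyte markers was 59418 to 79525 RPKM in Con and 55699 to 62686 RPKM in HS. The number of reads is unknown. The steps between low values of 17 genes put the relative depth of the Con libraries at 0.978 to 1.03 and that of the HS libraries at 0.958 to 0.972 of the mean, and the RPKM of all genes summed to 749557 to 806937 in Con and 692818 to 739410 in HS. Con replicate 3 lay between the other 2 Con libraries for nearly every gene that set them apart. Of 121 genes with a value of at least 5 RPKM that differed by at least 1 on the log2 scale between Con replicates 1 and 2, 99.2% had their replicate 3 value inside that interval, with a median position of 0.526 (quartiles 0.482 and 0.572, where 0 is replicate 2 and 1 is replicate 1). For 180 such genes in HS the share was 56.7% and the quartiles were -0.097 and 0.724. The reason was not tested. If replicate 3 did not come from material of its own, Con would hold 2 independent libraries, and the standard errors and p-values given here, the permutation p included, would be too small. Counts are therefore also given without Con replicate 3.

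**Figure D1:**
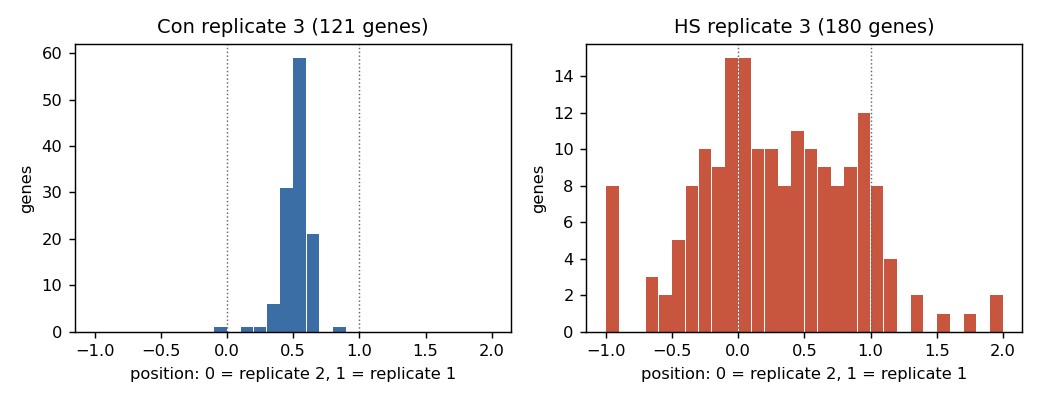
Position of replicate 3 between replicates 1 and 2 of the same group, for genes that differ by at least 1 on the log2 scale between those 2 libraries, with the number of genes on the vertical axis and the genes beyond either end of the axis counted in the outermost bars. In Con the positions form a narrow peak near 0.526, and in HS they spread from below 0 to above 1.

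Compared to the Con group, 890 genes were called higher in the HS group (8.76% of those tested) and 106 lower (1.04%) at an adjusted p under 0.05 from limma. The whole distribution was shifted, with a median log2 change of 0.14 over all genes tested. When every library was scaled to the same median, the calls were nearly even, with 242 genes higher (2.38%) and 255 lower (2.51%), and all 242 genes higher and 97 of the genes lower were called in both fits. Small positive changes are therefore given beside this shift. Without Con replicate 3, 242 genes were called higher (2.38% of 10164) and 26 lower (0.256%), 241 and 26 of them also called with all libraries. The 3 HS libraries lay above the 3 Con libraries for 32.6% of the genes tested and below them for 4.17%. For such genes the exact permutation p (two-sided) is 0.1, the lowest value that 3 against 3 libraries can reach. In all, 42 genes higher and 13 lower in HS were called under every one of the 17 alternatives.

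Genes of glucose production were higher in HS. Of 11 tested genes of gluconeogenesis, 5 were called higher and 0 lower, and the median log2 change was 0.56, or 0.38 after median scaling. Without Con replicate 3 the calls were 2 higher and 0 lower. Pck1 (chromosome 2, 173153048 to 173159273 of GRCm38), which encodes the cytosolic PEP carboxykinase that commits oxaloacetate to glucose synthesis, was at 287, 342 and 302 RPKM in Con and 1084, 1045 and 941 RPKM in HS. Every HS library was above every Con library. Pck1 changed by 1.72 on the log2 scale (SE 0.13, adjusted p = 9.43e-05). Fbp1, the fructose-1,6-bisphosphatase of the pathway, was at 426, 554 and 508 RPKM in Con and 1096, 1118 and 965 RPKM in HS. Fbp1 changed by 1.10 on the log2 scale (SE 0.17, adjusted p = 0.00463), again without overlap. Each HS liver thus held more than the highest Con liver of both messages. Pcx, which makes oxaloacetate from pyruvate in mitochondria, was at 81.5, 95.4 and 95.5 RPKM in Con and 177, 142 and 134 RPKM in HS (log2 change 0.72, adjusted p = 0.0178). Got1, an aspartate aminotransferase, was at 33.6, 51.8 and 44.8 RPKM in Con and 72.1, 111 and 157 RPKM in HS (log2 change 1.32, adjusted p = 0.0223). Pck1 and Fbp1 were called under all alternatives. The call was lost for Pcx without Con replicates 1 or 3 (adjusted p up to 0.0676) and for Got1 without Con replicates 1 or 3 or HS replicates 2 or 3 (adjusted p up to 0.0837). G6pc, the catalytic subunit that releases free glucose, was at 156, 265 and 208 RPKM in Con and 315, 342 and 259 RPKM in HS, where the groups overlapped (adjusted p = 0.204).

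The Pck1 promoter is shown because it carries the most firmly called change of the group. RefSeq sequences of the GRCm38.p6 promoters were searched on both strands over the 250 bases before the start site for the cAMP response element TNACGTCA, through which fasting hormones act on this gene. A match began 93 bases before the Pck1 start, and 1 of 13 gluconeogenesis genes with a promoter held one, against 2.92% of 27025 genes. The window chr2:173152940-173153027 is on the plus strand, with the element in capitals.
Pck1: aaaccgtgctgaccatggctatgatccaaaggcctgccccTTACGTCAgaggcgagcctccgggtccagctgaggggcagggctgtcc

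Genes of glucose use gave few calls, and these went in both directions. Ppp1r3b, which targets phosphatase to glycogen, was at 36.7, 76.6 and 55.6 RPKM in Con and 15.3, 25.1 and 26.6 RPKM in HS (log2 change -1.27, adjusted p = 0.0252). All HS libraries were below all Con libraries, and HS replicate 1 was the lowest. Ugp2, which makes UDP-glucose, was higher, at 56.1, 72.7 and 62.4 RPKM in Con and 105, 106 and 112 RPKM in HS (log2 change 0.76, adjusted p = 0.00792). Over the 22 genes of glycolysis, glucose uptake and glycogen, 1 was called higher and 2 lower, and the median of 0.10 became -0.08 after median scaling. That is 4.55% higher and 9.09% lower, against 8.76% and 1.04% of all genes tested. Without Con replicate 3 the calls were 1 higher and 0 lower. The call of Ppp1r3b was lost without Con replicates 2 or 3 or HS replicates 1 or 2 (adjusted p up to 0.0825). The glucose transporter Slc2a2 (adjusted p = 0.109) and the pyruvate kinase Pklr (adjusted p = 0.127) were not called. Among 16 genes of insulin signalling 1 was called: Trib3, a pseudokinase that binds AKT, was at 1.32, 1.65 and 1.44 RPKM in Con and 7.25, 4.45 and 4.10 RPKM in HS. Trib3 changed by 1.31 on the log2 scale (SE 0.21, adjusted p = 0.00623) and was called under all alternatives. The insulin receptor Insr was at 9.71, 10.7 and 10.2 RPKM in Con and 11.3, 10.99 and 10.8 RPKM in HS (adjusted p = 0.561). Irs2 was at 1.81, 2.37 and 2.44 RPKM in Con and 3.26, 3.54 and 4.65 RPKM in HS (adjusted p = 0.0592).

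**Figure D2:**
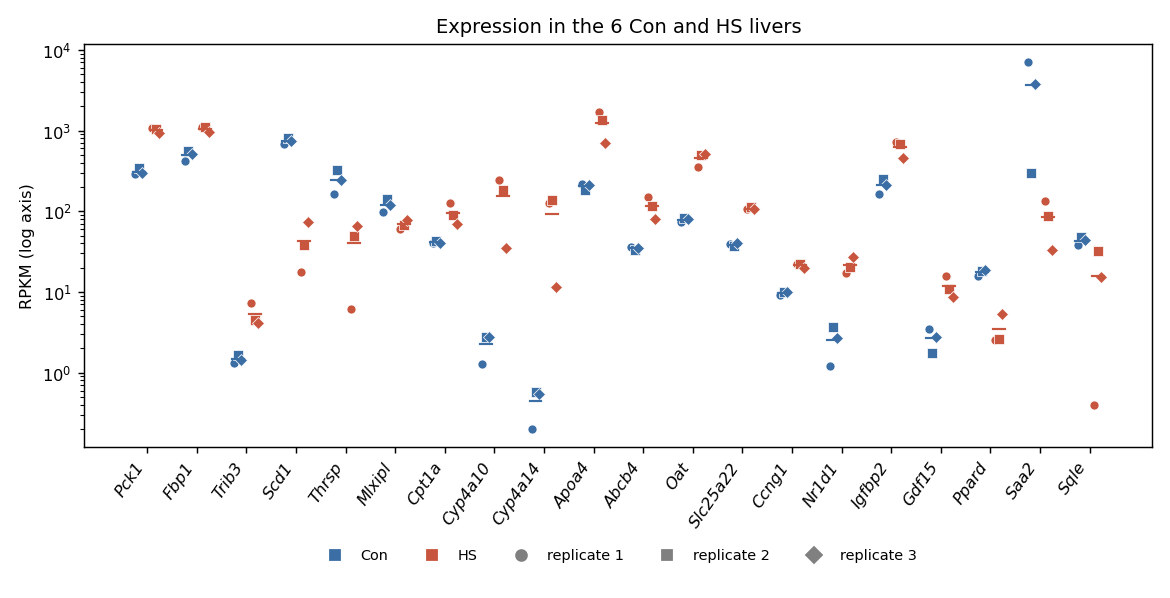
RPKM (log axis) of 20 genes in each of the 6 livers, with circles, squares and diamonds for replicates 1, 2 and 3 and a line at each group mean. Pck1, Fbp1, Cpt1a, Cyp4a10, Oat, Slc25a22, Ccng1 and Nr1d1 were higher in all HS libraries, Scd1, Thrsp, Mlxipl and Ppard were lower in all of them, and Sqle in HS replicate 1 was at 0.40 RPKM.

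Genes of fatty acid use were higher in part, and most of all in HS replicate 1. Of 18 genes of mitochondrial beta-oxidation, 8 were called higher and 0 lower, with a median of 0.67 (0.49 after median scaling). All 18 had a positive change, as did 7865 of the 10159 genes tested. There were 2 higher and 0 lower called without Con replicate 3, and 4 higher and 0 lower without HS replicate 1. Cpt1a, the transferase that controls the entry of long-chain fatty acids into mitochondria, was at 39.9, 42.9 and 40.5 RPKM in Con and 128, 89.5 and 69.2 RPKM in HS. Cpt1a changed by 1.15 on the log2 scale (SE 0.19, adjusted p = 0.00637). Hadhb, the thiolase subunit of the trifunctional protein, was at 58.7, 75.5 and 65.7 RPKM in Con and 162, 129 and 98.5 RPKM in HS (log2 change 0.93, adjusted p = 0.0118). In 17 of the 18 genes HS replicate 1 was above replicate 2 and replicate 2 above replicate 3, an order found for 1928 of the 10159 genes tested, and the median of the list relative to the Con mean was 1.02, 0.64 and 0.26 in HS replicates 1 to 3. Of 14 peroxisomal genes 7 were called higher, but 3 after median scaling, 2 without Con replicate 3 and 4 without HS replicate 1. Slc27a2, a very long-chain acyl-CoA synthetase, was at 237, 248 and 248 RPKM in Con and 730.0, 507 and 415 RPKM in HS (log2 change 1.13, adjusted p = 0.00875). Amacr, an alpha-methylacyl-CoA racemase, was at 85.7, 88.95 and 92.02 RPKM in Con and 160.2, 135 and 118 RPKM in HS (log2 change 0.61, adjusted p = 0.00865). Crot, which exports shortened chains as carnitine esters, was at 149.7, 157 and 158 RPKM in Con and 598, 312 and 251 RPKM in HS (log2 change 1.21, adjusted p = 0.0292). In all 3 of these genes the HS libraries lay above Con, and replicate 1 was the highest. The call was lost for Hadhb without Con replicate 1 (adjusted p up to 0.0501) and for Crot without Con replicates 1, 2 or 3 or HS replicates 1 or 2 (adjusted p up to 0.0909).

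The largest 2 increases among the genes named by rule were of fatty acid hydroxylases. Cyp4a14, a fatty acid omega-hydroxylase and a textbook PPAR alpha target, was at 0.20, 0.57 and 0.55 RPKM in Con and 127, 139 and 11.4 RPKM in HS. Cyp4a14 changed by 5.41 on the log2 scale (SE 0.99, adjusted p = 0.0102). Cyp4a10 was at 1.29, 2.76 and 2.77 RPKM in Con and 241, 182 and 35.5 RPKM in HS. Cyp4a10 changed by 5.20 on the log2 scale (SE 0.85, adjusted p = 0.00637). Both were below 3 RPKM in every Con library, and in HS replicate 3 they were well below the other HS libraries. Their sequences are alike, and reads may have been divided between them. Cyp4a12a, a male-biased member of the family, was lower, at 387, 363 and 379 RPKM in Con and 175, 238 and 223 RPKM in HS (log2 change -0.84, adjusted p = 0.0167). Over the 12 genes of omega-oxidation and acyl-CoA thioesterases 6 were called higher and 1 lower, with a median of 0.96 (0.80 after median scaling), and the calls without Con replicate 3 were 3 higher and 0 lower. The call was lost for Cyp4a12a without Con replicates 1 or 3 (adjusted p up to 0.0616). In ketogenesis 3 of 8 genes were called, all higher, and 0 without Con replicate 3. One of them, the dehydrogenase Bdh1, was at 49.9, 71.9 and 62.8 RPKM in Con and 155, 103 and 92.03 RPKM in HS (log2 change 0.89, adjusted p = 0.0215). Ketogenesis thus had no call that held in each smaller set of libraries. The call of Bdh1 was lost without Con replicates 1 or 3 (adjusted p up to 0.0805). Pdk4, a kinase that blocks pyruvate dehydrogenase, was at 1.87, 2.92 and 2.38 RPKM in Con and 2.25, 1.77 and 1.22 RPKM in HS (adjusted p = 0.317).

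Of 8 PPAR and PGC1 receptors and coactivators, 1 was called higher and 1 lower. Ppara was at 12.01, 19.5 and 16.97 RPKM in Con and 22.98, 17.5 and 16.7 RPKM in HS with overlapping groups (adjusted p = 0.527). Pparg was at 2.67, 4.44 and 3.16 RPKM in Con and 2.78, 7.12 and 2.13 RPKM in HS (adjusted p = 0.899). Ppard (chromosome 17, 28232700 to 28301474), which encodes PPAR delta, was at 15.97, 18.1 and 18.7 RPKM in Con and 2.52, 2.60 and 5.29 RPKM in HS. Ppard changed by -2.11 on the log2 scale (SE 0.20, adjusted p = 4.61e-04) and was called under all alternatives. Rxra, their common partner, was at 64.5, 60.6 and 65.5 RPKM in Con and 81.2, 81.96 and 80.6 RPKM in HS (log2 change 0.35, adjusted p = 0.0159), a change of 0.17 that was not called after median scaling (adjusted p = 0.199), nor without HS replicate 2. Fatty acid uptake gave 2 calls of 10, both higher. Cd36, a fatty acid translocase, was at 2.45, 2.22 and 1.85 RPKM in Con and 8.48, 11.8 and 7.22 RPKM in HS (log2 change 1.66, adjusted p = 0.0114, and 0.0503 without Con replicate 3). Of 18 genes of triglyceride synthesis, lipolysis and droplet coat, 2 were called higher and 1 lower. Median scaling gave 0 higher and 2 lower, and without Con replicate 3 there were 0 calls. The lower gene, Gpam, changed by -0.67 on the log2 scale (adjusted p = 0.0492, and 0.13 without Con replicate 3). Cidec, a lipid droplet protein of the same list, was at 0.31, 0.44 and 0.29 RPKM in Con and 5.12, 2.89 and 0.65 RPKM in HS (log2 change 1.34, adjusted p = 0.0405). The droplet coat gene Plin2 was at 159, 146 and 156 RPKM in Con and 414, 282 and 173 RPKM in HS, which did not overlap but was not called (adjusted p = 0.0626). The call of Cidec was lost without Con replicates 1, 2 or 3 or HS replicates 1 or 2 (adjusted p up to 0.113).

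Genes of fatty acid synthesis were lower in part. Of 16 genes of de novo lipogenesis, 4 were called lower and 2 higher, with a median of -0.57, or -0.22 without HS replicate 1. After median scaling 0 were higher and 4 lower, and the calls were 0 higher and 1 lower without Con replicate 3 and 0 higher and 4 lower without HS replicate 1. Scd1, the stearoyl-CoA desaturase that makes oleate, was at 676, 815 and 740.0 RPKM in Con and 17.4, 38.4 and 73.3 RPKM in HS. The highest HS library was at less than any Con library. Scd1 changed by -4.30 on the log2 scale (SE 0.69, adjusted p = 0.00637) and was called under all alternatives. Thrsp, which promotes lipogenesis, was at 164, 322 and 246 RPKM in Con and 6.19, 49.96 and 65.2 RPKM in HS (log2 change -3.03, adjusted p = 0.0211). Acss2, a cytosolic acetyl-CoA synthetase, was at 51.1, 146 and 96.5 RPKM in Con and 13.4, 31.7 and 36 RPKM in HS (log2 change -1.81, adjusted p = 0.0177). Acacb, which makes the malonyl-CoA that inhibits CPT1, was at 9.94, 16.8 and 13.1 RPKM in Con and 2.09, 5.90 and 7.89 RPKM in HS (log2 change -1.29, adjusted p = 0.0374). In each of these genes HS replicate 1 was the lowest library. Fasn, the fatty acid synthase, was at 40.5, 72.1 and 57.1 RPKM in Con and 4.37, 32.03 and 34 RPKM in HS, lower in every HS library but with an adjusted p of 0.12. Elovl2, which elongates polyunsaturated chains, was higher, at 87.2, 138 and 114 RPKM in Con and 245, 190.2 and 178 RPKM in HS (log2 change 0.86, adjusted p = 0.0249). Calls were lost for Thrsp without Con replicates 2 or 3 (adjusted p up to 0.0718), Acss2 without Con replicate 3 (adjusted p up to 0.0661), Acacb without Con replicates 1, 2 or 3 or HS replicates 1 or 2 (adjusted p up to 0.104) and Elovl2 without Con replicates 1 or 3 or HS replicates 1 or 2 (adjusted p up to 0.0858). Angptl8, an insulin-induced inhibitor of lipoprotein lipase, was at 55.5, 115 and 85.2 RPKM in Con and 33.1, 33.7 and 24.1 RPKM in HS (log2 change -1.42, adjusted p = 0.0164, and 0.0617 without Con replicate 3).

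Of 11 lipogenic regulators 1 was called. Mlxipl, which encodes the glucose-sensing factor ChREBP, was at 97.03, 141 and 120.0 RPKM in Con and 59.96, 68.6 and 79.05 RPKM in HS. Mlxipl changed by -0.77 on the log2 scale (SE 0.16, adjusted p = 0.0155), and its adjusted p was 0.0614 without Con replicate 3. Srebf1 was at 29.9, 58.2 and 44.4 RPKM in Con and 34.3, 29.6 and 55.5 RPKM in HS, with overlapping groups (adjusted p = 0.756). The sterol response element TCACNCCAC bound by SREBP factors was searched in the same promoter windows, since lipogenic and cholesterol genes share these factors. It was found in 1.22% of all genes, in 1 of 10 lipogenic regulators (Mlxipl, beginning 136 bases before the start) and in 1 of 14 cholesterol genes (Hmgcs1, 137 bases before the start). Both windows, chr5:135106715-135106803 for Mlxipl and chr13:119690174-119690262 for Hmgcs1, are on the plus strand, with the element in capitals.
Mlxipl: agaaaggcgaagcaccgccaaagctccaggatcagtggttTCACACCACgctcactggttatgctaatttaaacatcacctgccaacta
Hmgcs1: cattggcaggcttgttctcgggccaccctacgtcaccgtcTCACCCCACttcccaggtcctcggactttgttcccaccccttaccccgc

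Cholesterol genes set HS replicate 1 apart from the rest of its group. Over 21 genes of cholesterol synthesis and uptake the median relative to the Con mean was -2.81, -0.18 and -0.63 in HS replicates 1 to 3, and replicate 1 was the lowest of the HS libraries for all 21, against 4224 of the 10159 genes tested. Sqle, the squalene epoxidase, was at 37.8, 47.6 and 44.5 RPKM in Con and 0.40, 32.04 and 15.3 RPKM in HS. Hmgcs1, the cytosolic HMG-CoA synthase, was at 172, 193 and 175 RPKM in Con and 18.9, 176 and 113 RPKM in HS. Replicate 1 thus held these messages at a small part of their level in the other livers, while replicate 2 was within the Con range for Hmgcs1. With that spread only Sc5d, a sterol desaturase at 136, 199.9 and 167 RPKM in Con and 41.1, 94.2 and 104 RPKM in HS, was called (log2 change -1.15, adjusted p = 0.0496), and the list's median log2 change of -1.29 became -0.33 without HS replicate 1 (0 higher and 0 lower called). The call of Sc5d was lost without Con replicates 1, 2 or 3 or HS replicates 1 or 2 (adjusted p up to 0.129).

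**Figure D3:**
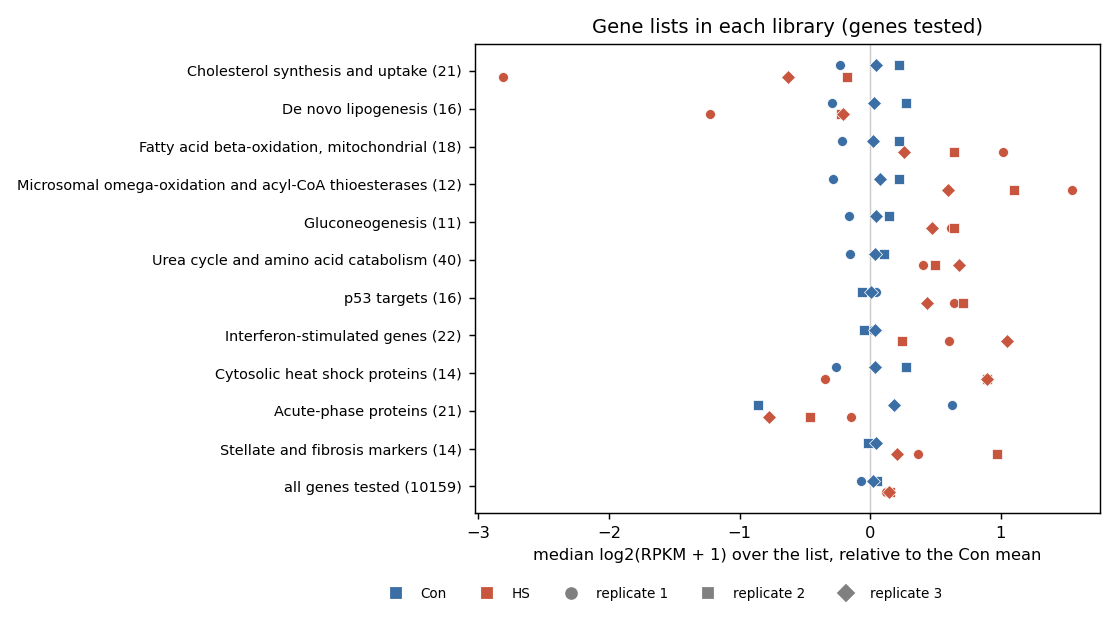
Median log2(RPKM + 1) of 11 gene lists and of all genes tested in each library, relative to the mean of Con, with blue symbols for Con and red for HS. HS replicate 1 (circle) was the lowest for cholesterol synthesis and the highest for both fatty acid oxidation lists, and HS replicates 2 and 3 were the highest for heat shock proteins.

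Several transporters of the bile canaliculus and 3 apolipoproteins were higher. Among 20 genes of bile acid synthesis and transport, 6 were called higher and 0 lower, but 1 higher after median scaling and 1 higher and 0 lower without Con replicate 3. Abcb4, which moves phosphatidylcholine into bile, was at 36, 32.97 and 34.7 RPKM in Con and 151, 115 and 80.7 RPKM in HS. Abcb4 changed by 1.67 on the log2 scale (SE 0.20, adjusted p = 0.00167) and was called under all alternatives. Abcg5 and Abcg8, which together form the sterol exporter, were both higher. Abcg5 was at 17.7, 14.7 and 16.6 RPKM in Con and 74.5, 28.9 and 32.2 RPKM in HS (log2 change 1.29, adjusted p = 0.0214). Abcg8 was at 11.2, 11.3 and 10.9 RPKM in Con and 38.6, 16.1 and 20.5 RPKM in HS (log2 change 1.01, adjusted p = 0.0304). The synthesis genes of this list were not called, with Cyp7a1, the rate-limiting hydroxylase, at 30.7, 24.3 and 27.5 RPKM in Con and 5.36, 45.7 and 22.5 RPKM in HS (adjusted p = 0.512). Cyp8b1 was at 168, 231 and 206 RPKM in Con and 249, 383 and 263 RPKM in HS (adjusted p = 0.154). Apoa4, an apolipoprotein of triglyceride-rich particles, was at 218, 183 and 214 RPKM in Con and 1683, 1339 and 709.7 RPKM in HS. Apoa4 changed by 2.51 on the log2 scale (SE 0.31, adjusted p = 0.00167) and was called under all alternatives. Apoc2, the activator of lipoprotein lipase, was at 362, 301 and 361 RPKM in Con and 1176, 697 and 559 RPKM in HS (log2 change 1.18, adjusted p = 0.012). Of 16 apolipoproteins, 3 were called higher and 0 lower. Apoa1, the main protein of HDL, was at 7890.5, 10371 and 9077 RPKM in Con and 8655, 7126 and 5999.6 RPKM in HS (adjusted p = 0.26). The calls were lost for Abcg5 without Con replicates 1, 2 or 3 (adjusted p up to 0.0688) and Abcg8 without Con replicates 1, 2 or 3 (adjusted p up to 0.092).

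Retinoid genes split. Of 16 tested, 3 were called higher and 2 lower (1 higher and 0 lower without Con replicate 3). Rdh16, a retinol dehydrogenase, was at 5.65, 13.5 and 9.03 RPKM in Con and 25.1, 23.7 and 19.4 RPKM in HS (log2 change 1.26, adjusted p = 0.0108). Retsat, a retinol saturase, was at 69.01, 121 and 98.5 RPKM in Con and 392, 212 and 143 RPKM in HS (log2 change 1.28, adjusted p = 0.0463). Aldh1a7 was lower, at 74.1, 62.6 and 73.1 RPKM in Con and 29.6, 41.5 and 30.8 RPKM in HS (log2 change -1.03, adjusted p = 0.0131). Rdh11, a retinal reductase, was also lower, at 33.9, 58.4 and 48.5 RPKM in Con and 5.01, 20.1 and 21.8 RPKM in HS (log2 change -1.72, adjusted p = 0.0482). Rdh16 and Rdh11, which both act between retinol and retinal, thus changed in opposite directions. The retinoic acid hydroxylase Cyp26a1 was at 34.97, 32.1 and 38.4 RPKM in Con and 1.10, 8.77 and 27.5 RPKM in HS, where each HS library was below Con but the spread was wide (adjusted p = 0.0751). Calls were lost for Retsat without Con replicates 1, 2 or 3 or HS replicates 1 or 2 (adjusted p up to 0.154), Aldh1a7 without Con replicates 1 or 3 (adjusted p up to 0.056) and Rdh11 without Con replicates 1, 2 or 3 or HS replicates 1 or 2 (adjusted p up to 0.129).

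Amino acid breakdown was the list with the most called genes. Of 40 genes of the urea cycle and amino acid catabolism, 16 were called higher and 0 lower, with a median of 0.51. After median scaling the median was 0.33, with 9 called higher and 1 lower, and the calls without Con replicate 3 were 9 higher and 0 lower. Oat (chromosome 7, 132557478 to 132576398), the ornithine aminotransferase that links ornithine and glutamate, was at 72.8, 81.6 and 79.9 RPKM in Con and 353, 505 and 514 RPKM in HS. Oat changed by 2.52 on the log2 scale (SE 0.25, adjusted p = 5.18e-04). Slc25a22, a mitochondrial glutamate carrier, was at 39.2, 37 and 39.97 RPKM in Con and 105, 113 and 105 RPKM in HS, with HS libraries that were nearly equal. Slc25a22 changed by 1.45 on the log2 scale (SE 0.11, adjusted p = 9.43e-05). Mat1a, the liver S-adenosylmethionine synthetase, was at 395, 434 and 439.6 RPKM in Con and 977, 1082 and 960.4 RPKM in HS. Mat1a changed by 1.25 on the log2 scale (SE 0.18, adjusted p = 0.00364). These 3 were called under all alternatives. Sds, a serine dehydratase, was at 74.3, 86.5 and 83.8 RPKM in Con and 150.1, 124 and 161 RPKM in HS (log2 change 0.82, adjusted p = 0.0367), but the call was lost without Con replicates 1, 2 or 3 or HS replicates 1, 2 or 3 (adjusted p up to 0.116). The first enzymes of the urea cycle overlapped between the groups and were highest in HS replicate 3. Cps1 was at 298, 449 and 375 RPKM in Con and 378, 527 and 941 RPKM in HS (adjusted p = 0.173). Ass1 was at 1345, 1992 and 1688 RPKM in Con and 1653, 2031 and 2954 RPKM in HS (adjusted p = 0.269).

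Of 14 hepatokines, 3 were called higher and 3 lower, and 1 higher and 0 lower without Con replicate 3. Igfbp2, an IGF-binding protein, was at 164, 252 and 215 RPKM in Con and 728, 677 and 463 RPKM in HS. Igfbp2 changed by 1.56 on the log2 scale (SE 0.21, adjusted p = 0.00267), under all alternatives. It was the only call among 14 genes of the growth hormone and IGF axis. Igf1 was at 86.9, 117 and 99.1 RPKM in Con and 109, 110.1 and 135 RPKM in HS (adjusted p = 0.239). Gdf15, a stress-induced cytokine, was at 3.47, 1.73 and 2.75 RPKM in Con and 15.7, 10.8 and 8.6 RPKM in HS. Gdf15 changed by 1.79 on the log2 scale (SE 0.28, adjusted p = 0.00521). Fgf21, a fasting hormone and PPAR alpha target, was at 0.98, 0.78 and 1.00 RPKM in Con and 13.9, 4.51 and 1.45 RPKM in HS, with replicate 1 the highest and replicate 3 close to Con (adjusted p = 0.0798). Of the lower hepatokines, Angptl8 is given above. Angptl4, an inhibitor of lipoprotein lipase, was higher, at 17.3, 25.04 and 21.3 RPKM in Con and 71.5, 51.5 and 29.2 RPKM in HS (log2 change 1.15, adjusted p = 0.0304). The call of Angptl4 was lost without Con replicates 1 or 3 or HS replicates 1 or 2 (adjusted p up to 0.108). Of 16 sex-biased liver genes, 1 was called higher and 3 lower. Hsd3b5, a male-biased steroid reductase, was at 163, 257 and 216 RPKM in Con and 67.8, 76.3 and 125 RPKM in HS (log2 change -1.26, adjusted p = 0.0109). The female-biased Cyp3a44 was at 0.59, 0.30 and 0.50 RPKM in Con and 5.6, 5.43 and 7.03 RPKM in HS (log2 change 2.26, adjusted p = 0.00521). Both were also called without Con replicate 3. The male-biased Cyp2d9 was at 640.0, 836 and 760.2 RPKM in Con and 851, 886 and 893 RPKM in HS (adjusted p = 0.243).

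Within the circadian clock, the REV-ERB repressors stood out. Nr1d1 (chromosome 11, 98767932 to 98775333), which encodes REV-ERB alpha, was at 1.22, 3.68 and 2.72 RPKM in Con and 17.2, 20.1 and 26.96 RPKM in HS. Nr1d1 changed by 2.71 on the log2 scale (SE 0.32, adjusted p = 0.00158). Nr1d2, which encodes REV-ERB beta, was at 2.05, 3.03 and 2.49 RPKM in Con and 8.88, 8.41 and 8.18 RPKM in HS. Nr1d2 changed by 1.44 on the log2 scale (SE 0.17, adjusted p = 0.00157). For both genes the groups did not overlap. Cry1, a repressor of CLOCK and BMAL1, was lower, at 8.45, 14.03 and 10.5 RPKM in Con and 5.73, 5.26 and 6.78 RPKM in HS (log2 change -0.77, adjusted p = 0.0329). Nr1d1 and Nr1d2 were called under all alternatives, and the call was lost for Cry1 without Con replicates 2 or 3 or HS replicates 1 or 2 (adjusted p up to 0.102). Arntl, which encodes BMAL1, was at 10.1, 12.9 and 12.2 RPKM in Con and 8.84, 8.86 and 13.4 RPKM in HS (adjusted p = 0.758). Per2 was at 1.68, 6.92 and 4.27 RPKM in Con and 1.89, 3.85 and 4.63 RPKM in HS (adjusted p = 0.784). The output gene Dbp was at 0.66, 0.58 and 0.68 RPKM in Con and 1.79, 2.22 and 1.17 RPKM in HS (adjusted p = 0.0587). In all, 2 of 22 clock genes were called higher and 2 lower (2 higher and 1 lower without Con replicate 3). That is 9.09% each way, against 8.76% higher and 1.04% lower over all genes tested. The hour at which livers were taken is not given in the sources used here. The E-box CACGTG bound by CLOCK and BMAL1 was found in 5 of 19 clock genes with a promoter (Bhlhe41, Ciart, Cry1, Per1 and Tef) and in 6.86% of all genes, and the D-box TTATGNAA in 3 of 19 and 3.63%. The Cry1 window is shown because Cry1 is the called gene among those with an E-box, which begins 60 bases before its start. It is chr10:85185069-85185154 on the minus strand, with the E-box in capitals.
Cry1: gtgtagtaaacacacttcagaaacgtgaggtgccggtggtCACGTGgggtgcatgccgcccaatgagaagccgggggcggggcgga

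Of 16 tested genes known as p53 targets, 8 were called higher and 0 lower, with a median of 0.60 (0.45 after median scaling, with 5 called higher). Without Con replicate 3 the calls were 5 higher and 0 lower. Ccng1, which encodes cyclin G1, was at 9.25, 10.1 and 10.1 RPKM in Con and 21.98, 22.4 and 19.7 RPKM in HS. Ccng1 changed by 1.04 on the log2 scale (SE 0.09, adjusted p = 2.96e-04). Aen, an apoptosis-enhancing nuclease, was at 7.25, 5.90 and 6.30 RPKM in Con and 15.6, 15.5 and 12.8 RPKM in HS. Aen changed by 1.06 on the log2 scale (SE 0.11, adjusted p = 5.18e-04). Phlda3, an inhibitor of AKT, was under 0.3 RPKM in each Con library and at 6.52, 5.06 and 2.32 RPKM in HS. Phlda3 changed by 2.11 on the log2 scale (SE 0.25, adjusted p = 0.00158). These 3 genes were apart between the groups in every library. Mdm2, the ubiquitin ligase of p53, was at 9.10, 8.11 and 8.71 RPKM in Con and 14.3, 15.3 and 13.2 RPKM in HS (log2 change 0.66, adjusted p = 0.00425). The cell cycle inhibitor Cdkn1a was at 11.3, 11.9 and 12.1 RPKM in Con and 34.9, 29.7 and 19.8 RPKM in HS (log2 change 1.15, adjusted p = 0.026), and its call was lost without Con replicates 1, 2 or 3 or HS replicates 1 or 2 (adjusted p up to 0.0828). Bax, which permeabilizes mitochondria, overlapped between groups (adjusted p = 0.152). Ccng1, Aen, Phlda3 and Mdm2 remained called without Con replicate 3. Ccnd1, which encodes cyclin D1, was at 3.49, 1.39 and 2.50 RPKM in Con and 12.1, 13.5 and 12.9 RPKM in HS. Ccnd1 changed by 2.05 on the log2 scale (SE 0.32, adjusted p = 0.00521), while Mki67 and Top2a, markers of dividing cells, were under 1 RPKM in all 6 livers.

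The stress programmes differed among the HS livers. Limma called 0 of 14 cytosolic heat shock genes (2 had an unadjusted p under 0.05). All 14 had a positive change, as did 7865 of the 10159 genes tested. The list's median relative to Con was -0.35, 0.89 and 0.89 in HS replicates 1 to 3. Hspa8, a constitutive chaperone, was at 288, 571 and 446 RPKM in Con and 429, 883 and 1068 RPKM in HS, and Hsph1 at 11.8, 21.6 and 16.3 RPKM in Con and 11.1, 43.9 and 59.4 RPKM in HS. Replicates 2 and 3 of HS were thus above replicate 1 for both. The endoplasmic reticulum list gave 2 calls of 21, both higher, or 9.52% against 8.76% of all genes. The count was 0 after median scaling, 1 without Con replicate 3 and 5 without HS replicate 1. Dnajb9, a co-chaperone of BiP, was at 28.1, 23.02 and 25.1 RPKM in Con and 36.9, 65.6 and 65.6 RPKM in HS (log2 change 1.07, adjusted p = 0.0237). Pdia6 was at 148, 154 and 158 RPKM in Con and 215, 197 and 233 RPKM in HS (log2 change 0.48, adjusted p = 0.0148). Hspa5, which encodes BiP itself, was at 285, 284 and 304 RPKM in Con and 232, 499 and 444 RPKM in HS (adjusted p = 0.437). In the PERK and ATF4 branch 4 of 15 genes were called higher, or 2 either after median scaling or without Con replicate 3. Besides Trib3, the serine hydroxymethyltransferase Shmt2 was at 76.5, 86.1 and 81.8 RPKM in Con and 119, 107 and 113 RPKM in HS (log2 change 0.46, adjusted p = 0.00981). Atf4 was at 68.4, 76.2 and 72.4 RPKM in Con and 60.5, 88.2 and 81.1 RPKM in HS (adjusted p = 0.822). Ddit3, which encodes CHOP, was at 5.32, 5.33 and 6.48 RPKM in Con and 5.77, 17.7 and 10.7 RPKM in HS (adjusted p = 0.206). The element TGATGNAA of ATF4 and CEBP dimers was found in 5 of 20 promoters of this list and in 3.91% of all genes, and not within the 250 bases before the start of Trib3. Nfe2l2, which encodes the antioxidant regulator NRF2, was at 23.3, 25.9 and 24.8 RPKM in Con and 40.5, 46.4 and 42.02 RPKM in HS. Nfe2l2 changed by 0.78 on the log2 scale (SE 0.11, adjusted p = 0.0029) and was called under all alternatives. Of its list, 5 of 18 antioxidant genes were called higher (2 after median scaling and 3 without Con replicate 3), with Nqo1 at 0.94, 1.71 and 1.48 RPKM in Con and 2.39, 3.07 and 3.54 RPKM in HS (log2 change 0.75, adjusted p = 0.0147). Calls were lost for Dnajb9 without Con replicates 1, 2 or 3 or HS replicates 2 or 3 (adjusted p up to 0.079), Pdia6 without Con replicate 1 (adjusted p up to 0.0519) and Nqo1 without Con replicate 1 (adjusted p up to 0.0537).

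Acute-phase genes were lower in part, and the Con livers differed widely among themselves. Of 21 tested, 4 were called lower and 0 higher, with a median of -0.40. Saa2, a serum amyloid A, was at 7018, 300.0 and 3826 RPKM in Con and 133, 87.6 and 33.3 RPKM in HS. Saa1, a near-identical copy, was at 6422, 296 and 3569.8 RPKM in Con and 354, 162 and 67.3 RPKM in HS. Con replicate 1 was the highest, replicate 2 the nearest to HS and replicate 3 between them. Saa2 changed by -4.76 on the log2 scale (SE 0.92, adjusted p = 0.0124), Saa1 by -3.58 (adjusted p = 0.0365) and Saa3 by -3.06 (adjusted p = 0.0415). Without Con replicate 3 none of the 4 was called (Saa2 adjusted p = 0.0588, Apcs 0.136). The calls were lost for Saa1 without Con replicates 1 or 3 or HS replicates 2 or 3 (adjusted p up to 0.125), Saa3 without Con replicates 1 or 3 or HS replicates 1, 2 or 3 (adjusted p up to 0.139) and Apcs without Con replicates 1 or 3 or HS replicates 1, 2 or 3 (adjusted p up to 0.154). Lcn2, a siderophore-binding protein, had the same pattern at 1043, 47.5 and 612 RPKM in Con and 88.5, 58.6 and 19.8 RPKM in HS (adjusted p = 0.103). So had the metallothionein Mt2, at 311, 23.4 and 199.8 RPKM in Con and 11.2, 19.01 and 20.2 RPKM in HS (adjusted p = 0.0399, and 0.132 without Con replicate 3). Mbl2, the mannose-binding lectin of complement, was higher with almost no spread, at 350.1, 353 and 358 RPKM in Con and 637, 645 and 646 RPKM in HS. Mbl2 changed by 0.86 on the log2 scale (SE 0.09, adjusted p = 5.18e-04) and was called under all alternatives.

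Of 22 interferon-stimulated genes, 5 were called higher and 0 lower, with a median of 0.63 (0.48 after median scaling, and 3 higher and 0 lower called without Con replicate 3), and HS replicate 3 stood highest by the list median (0.60, 0.25 and 1.05 relative to Con in HS replicates 1 to 3). Usp18, a negative regulator of interferon signalling, was at 2.17, 1.78 and 2.71 RPKM in Con and 9.44, 8.07 and 9.25 RPKM in HS. Usp18 changed by 1.63 on the log2 scale (SE 0.26, adjusted p = 0.00623). Ifit1, which binds viral RNA, was at 1.12, 1.23 and 0.96 RPKM in Con and 3.07, 2.10 and 3.48 RPKM in HS (log2 change 0.87, adjusted p = 0.00637). Irf7 was at 17.7, 14.6 and 17.1 RPKM in Con and 28.9, 14.5 and 60.6 RPKM in HS, with overlap (adjusted p = 0.243). In antigen presentation the peptide transporters Tap1 and Tap2 were the 2 calls of 14, with 0 without Con replicate 3. Tap1 was at 4.71, 5.70 and 5.04 RPKM in Con and 11.2, 7.35 and 13.2 RPKM in HS (log2 change 0.88, adjusted p = 0.0451). Tap2 was at 13.04, 12.3 and 13.3 RPKM in Con and 19.4, 18.3 and 20.6 RPKM in HS (log2 change 0.56, adjusted p = 0.0423). The class II genes H2-Aa, H2-Ab1 and Cd74 lay above Con in every HS library, highest in replicate 2, but were not called (adjusted p = 0.16, 0.223 and 0.17). The calls were lost for Tap1 without Con replicates 1, 2 or 3 or HS replicates 1 or 3 (adjusted p up to 0.133) and Tap2 without Con replicates 1, 2 or 3 or HS replicates 1, 2 or 3 (adjusted p up to 0.106).

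Markers of other cell types were summed beside these lists, because in bulk liver more cells of a type and more RNA per cell cannot be told apart. Limma called 0 of 15 Kupffer cell and macrophage markers (2 had an unadjusted p under 0.05), and their summed level was 171 to 278 RPKM in Con and 229 to 291 RPKM in HS. Lymphocyte and neutrophil markers, with 0 calls of 3 tested (1 at an unadjusted p under 0.05), summed to 6.05 to 13.9 RPKM in Con and 4.42 to 8.80 RPKM in HS. Stellate cell and matrix genes gave 4 calls of 14, all higher, with a median of 0.58 and a summed level of 108 to 120.4 RPKM in Con and 171 to 257 RPKM in HS. HS replicate 2 was the highest by the list median (0.36, 0.97 and 0.21 in HS replicates 1 to 3). Without Con replicate 3 the calls were 2 higher and 0 lower. Dcn, the proteoglycan decorin, was at 61.6, 71.6 and 61.4 RPKM in Con and 112, 140.5 and 99.02 RPKM in HS (log2 change 0.83, adjusted p = 0.00659). Colec11, a collectin made by stellate cells, was at 8.25, 13.6 and 11.97 RPKM in Con and 27.7, 24.1 and 27.8 RPKM in HS. Colec11 changed by 1.19 on the log2 scale (SE 0.17, adjusted p = 0.00425). Col1a1 and Col3a1, the fibrillar collagens, were high in HS replicate 2 alone, at 1.21, 4.85 and 0.84 and at 5.96, 19.6 and 4.21 RPKM in HS (adjusted p = 0.274 and 0.25). Red cell markers summed to 1257 to 1974 RPKM in Con and 2888 to 10044 RPKM in HS, without a call (3 of 4 at an unadjusted p under 0.05), and the part of blood left in the liver in these results was not tested. Endothelial markers gave 1 call of 12 (Eng, adjusted p = 0.0272), or 8.33% called higher against 8.76% of all genes tested. Cholangiocyte, exocrine pancreas and adipocyte markers gave 0 (0, 0 and 1 at an unadjusted p under 0.05). Among the tested markers, Cpa1 (at most 0.13 RPKM) and Cfd (at most 0.24 RPKM) were near 0 in every Con and HS liver. They passed the filter through the other fitted libraries. For such genes the absence of a call does not show that the groups were alike. The call of Eng was lost without Con replicates 1, 2 or 3 or HS replicates 1, 2 or 3 (adjusted p up to 0.096). Adipoq and Plin1 were listed at 0 in all Con livers and at most 0.06 RPKM in HS.

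Zonation genes were called higher or not called, and detoxification genes were called in both directions. The shares called higher were 28.6% of pericentral and 25% of periportal genes, against 8.76% of all genes tested. Since only 1.04% of all genes tested were called lower, the lack of lower calls in such short lists is not particular to them. Oat and Pck1, given above, had the largest changes of the pericentral and periportal lists, so these counts include them again. Of 14 pericentral genes 4 were called higher (2 after median scaling and 1 higher and 0 lower without Con replicate 3), among them Cyp2e1, the ethanol-oxidizing P450, at 1755, 2572 and 2221 RPKM in Con and 4009.5, 3649.7 and 3014 RPKM in HS (log2 change 0.71, adjusted p = 0.0177). Glul, the glutamine synthetase of the innermost hepatocytes, was at 186, 167 and 181 RPKM in Con and 251, 354 and 230.3 RPKM in HS (log2 change 0.62, adjusted p = 0.0272). Axin2, a general Wnt target, was at 1.72, 2.02 and 2.02 RPKM in Con and 2.52, 1.97 and 2.03 RPKM in HS (adjusted p = 0.554). Cyp1a2 was at 376, 428 and 407 RPKM in Con and 218, 247 and 389 RPKM in HS (adjusted p = 0.122). Of 12 periportal genes 3 were called higher, or 2 without Con replicate 3. Of 31 P450 genes of families 1 to 3, 3 were called higher and 2 lower (2 higher and 0 lower without Con replicate 3). That is 9.68% higher and 6.45% lower, against 8.76% and 1.04% of all genes tested. Cyp2c37 was at 10.3, 30.6 and 19.9 RPKM in Con and 64.1, 94.6 and 65.5 RPKM in HS (log2 change 1.93, adjusted p = 0.00969). Cyp2c70, which makes muricholic acid, was lower, at 618, 590.5 and 596 RPKM in Con and 164, 196 and 419 RPKM in HS (log2 change -1.33, adjusted p = 0.0186). The conjugating enzyme Ugt2b38 was lower, at 8.93, 7.15 and 7.96 RPKM in Con and 1.71, 2.86 and 2.90 RPKM in HS (log2 change -1.38, adjusted p = 0.00623). These families hold close paralogs between which reads may have been split. The calls were lost for Cyp2e1 without Con replicates 1 or 3 or HS replicate 2 (adjusted p up to 0.0614), Glul without Con replicates 1, 2 or 3 or HS replicate 2 (adjusted p up to 0.0825) and Cyp2c70 without Con replicates 1 or 3 or HS replicate 2 (adjusted p up to 0.0646).

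The large housekeeping groups had few calls, as did several smaller ones. Limma called 0 of 20 splicing factors and 0 of 14 immediate-early genes (0 and 1 at an unadjusted p under 0.05). Of 22 heme and iron genes 2 were called higher (9.09%), and of 28 complement and coagulation genes 2 higher (7.14%) and 1 lower (3.57%). Over all genes tested these shares were 8.76% higher and 1.04% lower. Of 21 genes of NAD metabolism 5 were called higher, but 1 higher and 1 lower after median scaling and 1 higher without Con replicate 3. Of 73 nuclear-encoded genes of oxidative phosphorylation 4 were called higher, of 75 mitochondrial ribosomal protein genes 1, of 35 proteasome genes 1 and of 32 ribosome biogenesis genes 3, with medians of 0.06, 0.10, 0.12 and 0.16 on the log2 scale, beside 0.14 for all genes. None of these calls was made after median scaling, where 2 genes of oxidative phosphorylation were called lower. The 81 cytosolic ribosomal protein genes lay on the other side, with a median of -0.24 and 79 of 81 below 0. Relative to the Con mean the list median was -0.205, 0.164 and 0.041 in Con replicates 1 to 3. It was -0.287, -0.204 and -0.249 in HS replicates 1 to 3, so that Con replicate 1 was close to HS. For 29 genes all HS libraries were below all Con libraries, against 4.17% of all genes. Without Con replicate 3 the calls were 0 higher and 0 lower. As deposited 1 of them was called lower, Rpl39 at 151, 204 and 191 RPKM in Con and 133, 137 and 129 RPKM in HS (log2 change -0.44, adjusted p = 0.0329). Its call was lost without Con replicates 2 or 3 or HS replicates 1, 2 or 3 (adjusted p up to 0.116). After median scaling 38 were called lower, with a median of -0.42.

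**Figure D4:**
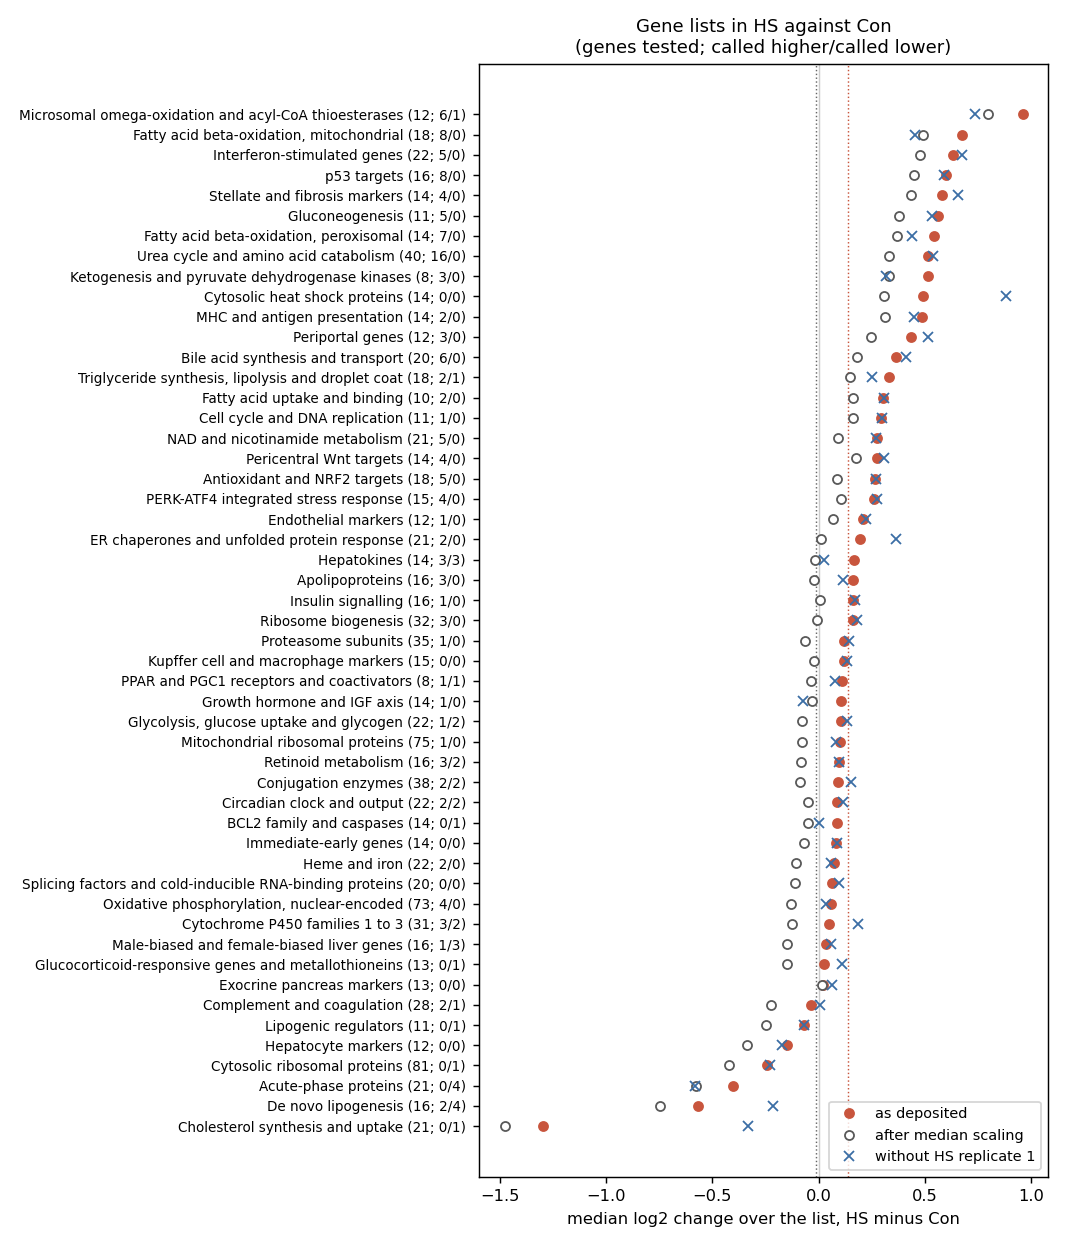
Median log2 change (HS minus Con) of each gene list with at least 8 tested genes, as deposited (red), after median scaling (open) and without HS replicate 1 (crosses), with the number of genes tested and called higher and lower beside each name. Dotted lines mark the medians of all genes tested. The lists of omega-oxidation and mitochondrial beta-oxidation have the highest medians, at 0.96 and 0.67, and the cholesterol list, at -1.29, moves to -0.33 without HS replicate 1.

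Several of the largest changes fell outside these pathways. Among called genes without overlap that were also called after median scaling, the 8 with the largest increases were Cyp4a14, Cyp4a10, Cck, Mfsd2a, Cplane1, Cdc42ep5, Nr1d1 and Oat. Cck, the gut and brain hormone cholecystokinin, was at 1.35, 3.39 and 2.16 RPKM in Con and 42.4, 28.9 and 50.6 RPKM in HS. Cck changed by 3.67 on the log2 scale (SE 0.45, adjusted p = 0.00167). Mfsd2a, a transporter of lysophospholipids carrying omega-3 fatty acids, was at 0.89, 2.36 and 1.28 RPKM in Con and 46.1, 37.7 and 7.19 RPKM in HS. Mfsd2a changed by 3.34 on the log2 scale (SE 0.56, adjusted p = 0.00659). Cplane1 (chromosome 15, 8169106 to 8271158), a ciliary gene, was at 0.55, 0.60 and 0.57 RPKM in Con and 11.3, 8.24 and 12.02 RPKM in HS, with nearly equal Con libraries. Cplane1 changed by 2.86 on the log2 scale (SE 0.21, adjusted p = 9.43e-05). The 8 with the largest decreases included Saa2, Scd1, Fam25c, Nat8f7, Raet1d, Thrsp and Nat8f5. Raet1d, a ligand of the NKG2D receptor from a family of similar genes, was at 16.7, 31.1 and 22.99 RPKM in Con and 0.79, 3.27 and 2.28 RPKM in HS (log2 change -3.03, adjusted p = 0.00132). Nat8f7 and Nat8f5, N-acetyltransferase-like genes and paralogs of each other, were both lower. Nat8f7 was at 8.84, 18.5 and 13.03 RPKM in Con and 0.31, 0.52 and 1.25 RPKM in HS (log2 change -3.08, adjusted p = 0.00327). Nat8f5 was at 36.6, 35.1 and 35.1 RPKM in Con and 4.21, 3.75 and 12.8 RPKM in HS (log2 change -2.39, adjusted p = 0.00659). Fam25c was at 67.2, 30.6 and 52.3 RPKM in Con and 9.73, 1.26 and 4.71 RPKM in HS (log2 change -3.23, adjusted p = 0.00637). Cck, Cplane1 and Raet1d were called under all alternatives, and the call of Cdc42ep5 was lost without Con replicates 1 or 3 or HS replicate 2 (adjusted p up to 0.0826).

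The same diet and STZ effect was measured a second time, in mice that all received AOS. HSA10 compared with A10 shares no library with the comparison above, but its error was estimated from all 18 libraries rather than 12. In that larger fit HS against Con gave 1809 calls instead of 996, so numbers of calls are not directly comparable. In HSA10 compared with A10, 1388 genes were called higher (13.6% of 10204) and 743 lower (7.28%), with a median log2 change of 0.043. Of the 890 genes called higher in HS, 825 (92.7%) had a positive change in HSA10 compared with A10 and 524 (58.9%) were called higher, where 57.2% of all genes had a positive change. Of 105 genes called lower in HS and present in both fits, 102 (97.1%) had a negative change and 79 (75.2%) were called lower, against 42.8% of all genes with a negative change. Replicate 3 of A10 was also between the other 2 for 95.3% of 107 such genes, so that the second comparison carries the same limit.

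Lipid genes were called there in larger numbers, and amino acid genes in smaller, though the fits differed as given above. Cyp4a14 changed by 6.35 on the log2 scale in HSA10 compared with A10 (adjusted p = 3.22e-04), Scd1 by -5.86 (adjusted p = 6.34e-05) and Pck1 by 0.96 (adjusted p = 1.98e-04). Sqle, not called in HS, changed by -3.77 (adjusted p = 0.00979) and Fasn by -3.11 (adjusted p = 0.00209). Of the cholesterol list 17 genes were called lower there, with a median of -2.34, and 15 genes of mitochondrial beta-oxidation were called higher, with a median of 0.85. Of the 40 amino acid genes, 8 were called higher and 2 lower, with a median of 0.14 beside 0.51 in HS. Got1 changed by -0.11 (adjusted p = 0.845), Elovl2 by 0.24 (adjusted p = 0.396) and Angptl4 by 0.57 (adjusted p = 0.112), none of them called. Cplane1 changed by 3.32 (adjusted p = 8.30e-08), Oat by 2.23 (adjusted p = 2.53e-05), Phlda3 by 2.26 (adjusted p = 2.56e-05) and Nr1d1 by 1.55 (adjusted p = 0.00671).

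Other changes were not called there or were called in the opposite direction. The endoplasmic reticulum list, with 2 genes higher in HS, had 0 higher and 9 lower of 21 in HSA10, with medians of 0.20 and -0.43, and Dnajb9 changed by -0.25 (adjusted p = 0.488). The interferon list had a median of -0.45 with 0 genes called higher, and Usp18 changed by -0.56 (adjusted p = 0.36). Saa2 changed by -2.0 (adjusted p = 0.117), Thrsp by -0.80 (adjusted p = 0.431), Cdc42ep5 by 0.05 (adjusted p = 0.963) and Fam25c by 0.01 (adjusted p = 0.99). When the difference between both effects was tested itself, 1 gene of 10204 passed, Dbp (difference 3.92 on the log2 scale, adjusted p = 0.00978), and 1320 genes had an unadjusted p under 0.05. The count rested on single libraries, with 118 genes without HS replicate 1 and 0 without HS replicate 3. The difference was not called for Usp18 (adjusted p = 0.148) or Thrsp (adjusted p = 0.338), so that these effects are not shown to differ.

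**Figure D5:**
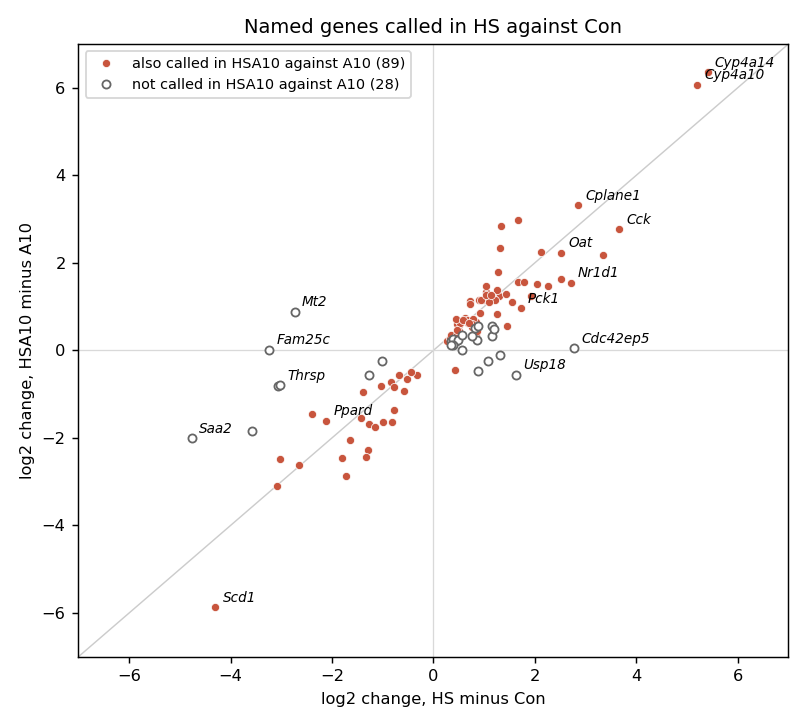
Log2 change of the 117 named genes called in HS compared with Con (horizontal axis) against their log2 change in HSA10 compared with A10 (vertical axis), with filled points for genes also called in the second comparison and a line of equal change. Of the 117 genes, 109 changed in the same direction, 88 of these were called in the second comparison, and 1 gene (Sult1a1) was called there in the opposite direction.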

How the data were processed

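Liver mRNA was sequenced by the authors, who enriched it with oligo(dT), aligned it to reference genes (SOAPaligner) and deposited 1 RPKM value per gene and library with 2 decimals, while the submitters' processing notes name Bowtie 0.12.2 and mm10. Since RPKM is relative, a shift in abundant genes moves all others. Dates stood in place of 26 symbols, and 3 symbols were repeated. Here log2(RPKM + 1) was fitted with limma 3.58.1 (R 4.3.3) with 1 mean per group over the 12 libraries of Con, HS, A10-FMT and Con-FMT and a variance trend, for genes averaging 1 RPKM or more. P-values were two-sided and adjusted by Benjamini-Hochberg over all genes tested. The study's own test, DEGseq, was not used because it ignores replicate spread. The comparison of HSA10 with A10 and the difference between both effects came from a fit of all 18 libraries. The method was tested on simulated data.

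The members and the 55 gene lists, with 1135 genes of which 1038 were tested, were chosen with earlier results of these data known. Named were list members marked in advance, up to 2 called members per list and direction with the smallest adjusted p, and the 8 largest changes per direction among called genes without overlap, at a mean of at least 5 RPKM, with the call also made in that direction after scaling. Beyond this rule 9 genes (Phlda3, Got1, Mat1a, Retsat, Crot, Apcs, Abcg8, Zmat3 and Acacb) were named after their values were seen. Some genes that the rule names are not reported here. The 17 alternatives were another pseudocount (0.1), no filter or a mean of at least 5 RPKM, median, quantile and sum scaling (without the 10 most abundant genes), a replicate block, no trend, all 18 or only 6 libraries, each Con or HS library left out, and median scaling without Con replicate 3. The study's threshold was tried as well. Gene positions came from GENCODE M21 and promoters from RefSeq, both on GRCm38. The depth is unknown, so no counting error is given.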

Additional observations from a re-analysis of the deposited data

Results flagged for a closer look

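One result was set apart because the effect of diet and STZ differed between mice without and with AOS. Dbp, a clock output gene, was at 0.66, 0.58 and 0.68 RPKM in Con, 1.79, 2.22 and 1.17 RPKM in HS, 3.41, 0.36 and 1.78 RPKM in A10 and 97.5, 47.3 and 52.8 RPKM in HSA10. The effect was larger with AOS by 3.92 on the log2 scale (adjusted p = 0.00978 from limma over 10204 genes). The call was not made without HS replicate 3, where 0 genes passed. The hour of sampling is not given for either pair and its part was not tested.

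For 6 further genes every library moved one way in HS and the opposite way in HSA10. Usp2, a clock-controlled deubiquitinase, was lower in HS than in Con and changed by 2.23 on the log2 scale in HSA10 compared with A10 (adjusted p of the difference 0.0591). Igfbp1, an IGF-binding protein suppressed by insulin, was higher in HS and changed by -2.20 in the pair with AOS (adjusted p of the difference 0.118). Clock (-0.34), B2m (-0.26), Psmb8 (-0.35) and Sult1a1 (-0.46) were likewise higher in HS and lower in HSA10, with adjusted p-values of the difference of 0.201, 0.363, 0.414 and 0.113. None of these 6 differences was called. Over all genes tested, 32.6% lay above Con without overlap in HS and 4.17% below. The share of all genes that also moved the opposite way in HSA10 is not given here. After median scaling the HS change went from 0.163 to -0.022 for B2m and from 0.226 to 0.067 for Clock.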

How the results depend on the processing

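The number of genes called (996, of which 890 higher and 106 lower in HS) stayed within 1.5 times with sum scaling, without a trend, in the fit of 6 libraries, with no filter or one at 5 RPKM, and at a pseudocount of 0.1. It was 497 (242 higher, 255 lower) after median scaling, 493 (277 and 216) after quantile normalization, 1809 (1618 and 191) with all 18 libraries, 93 (58 and 35) with median scaling without Con replicate 3, and 12 (11 and 1) under the study's threshold of an adjusted p of at most 0.001 and a log2 change of at least 1. Leaving out 1 library gave 268 to 695 genes, 237 to 624 higher and 26 to 94 lower, fewest without Con replicate 3 (268), and 306 without Con replicate 1, 618 without Con replicate 2 and 356 without HS replicate 2. The cause of these moves was not tested, except that fewer libraries leave a wider error. The labels number replicates alike in all groups. Same-numbered Con and HS libraries correlated in their deviations by 0.142, 0.007 and -0.046. So few libraries cannot show whether those with the same number share more than that number. With the replicate block 638 genes were called, 558 of them higher, and not every library correlated best with its own number. For the difference between both effects (1 gene) the count was 4 with a pseudocount of 0.1, 2 without a filter and 2 with one at 5 RPKM, 5 with sum scaling, and 0 to 118 with 1 library left out, 118 of them without HS replicate 1. Of the 117 named genes called, 27 kept the call and direction wherever tested, 77 after median scaling, 54 without Con replicate 3 and 91 with the block. The 279 named genes tested gave 4700 values under the alternatives, called and uncalled together. No called value among them reversed, while 124 of 2660 uncalled values changed sign.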

Other observations

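For some genes the range within Con was wider than the difference between the group means. Nnmt, the nicotinamide N-methyltransferase, was at 42.5, 1.76 and 22.9 RPKM in Con and 13.9, 51.3 and 28.9 RPKM in HS. Mt1, a metallothionein, was at 736, 58.1 and 493 RPKM in Con and 33.2, 62.1 and 73.1 RPKM in HS, and Orm1, an acute-phase glycoprotein, at 3249.8, 1037 and 2219.7 RPKM in Con and 1181, 882 and 1069 RPKM in HS. In each of these Con replicate 3 lay between the other Con libraries. Others differed within HS. Acmsd, which steers tryptophan breakdown away from NAD, was at 10.8, 8.79 and 9.25 RPKM in Con and 6.39, 30.6 and 35.8 RPKM in HS, low in HS replicate 1 alone, and Alas1, the first enzyme of heme synthesis, at 24.9, 82.1 and 50.6 RPKM in Con and 95.1, 226 and 83.5 RPKM in HS, high in HS replicate 2 (adjusted p = 0.231 and 0.0885). The globin gene Hbb-bs was at 0.85, 220.2 and 91.8 RPKM in Con and 183, 1895 and 1094 RPKM in HS, and Hba-a1 at 1854, 894 and 1471 RPKM in Con and 2598, 7770.4 and 4216 RPKM in HS.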
